A study of Mus musculus with 16 samples.

Results

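The suprabasal and basal cells of newborn Dlx3 knockout (KO) epidermis were compared with each other. The libraries were chosen by their labels alone, 2 KO basal and 2 KO suprabasal, and are 4 of the 16 libraries in the series. The mice were of a mixed CD-1 and C57BL/6 strain and aged p0 to p2, and both KO fractions carry the KO genotype. The reference groups, 2 Dlx3 wild-type (WT) basal and 2 WT suprabasal libraries, share that strain and age, and the Fvb/N libraries of the series are not used here. Skin epidermis was dissected and its cells were separated into the 2 fractions on a Percoll density gradient, and total RNA was sequenced. How the KO allele was made, which cells carry it, and whether the libraries of a group come from separate animals or from pooled litters are not given in the sources used here. The p-values therefore measure only the spread between libraries, which may be technical.

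The epidermis renews itself from a basal layer of dividing keratinocytes that is anchored to the basement membrane. Cells that leave this layer stop dividing, assemble a new keratin network with stronger desmosomes in the spinous layer, and in the granular layer make the proteins, lipids and enzymes that become the cornified barrier. Dlx3 encodes a homeodomain transcription factor of differentiating epidermal cells and of the hair follicle, where the mouse gene is needed for hair shaft and inner root sheath formation.

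Dlx3 was at 2.35 and 2.16 RPKM in KO basal and at 2.64 and 2.24 RPKM in KO suprabasal libraries, against 11.2 and 11 RPKM in WT basal and 7.87 and 6.92 RPKM in WT suprabasal libraries. RPKM are read counts divided by gene length and by each library's mapped reads. The KO libraries were below the WT libraries of the same fraction, by a log2 change of -1.89 in basal cells (limma, adjusted p = 3.97e-07) and of -1.29 in suprabasal cells (adjusted p = 6.01e-06). Between the KO fractions the residual Dlx3 signal differed by a log2 change of 0.08 (SE 0.07, adjusted p = 0.315), and the KO libraries overlapped. With the libraries scaled by their median ratio the change was 0.41 (adjusted p = 0.000629, limma) and with quantile normalization 0.28 (adjusted p = 0.00548), so Dlx3 was called higher in KO suprabasal cells on both of these scales. The depth estimated from the steps between RPKM values was 33800000 to 42020000 reads over the 8 libraries. The 2 libraries of a KO fraction differed by a median of 3.53% (basal) and 3.61% (suprabasal) over genes, with a mean chi-square per degree of freedom of 1.96 and 2.21, where counting noise alone gives 1.

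Marker genes were set beside the fraction labels. Krt5, Spink5, Serpina12 and Sqle were named with earlier results of these data known, so they are not an independent check of the labels. Krt5, the type II keratin of basal cells, was at 8531 and 8427 RPKM in KO basal and at 3396 and 3373 RPKM in KO suprabasal libraries. Krt1, the type II keratin that replaces it above the basal layer, was at 2312 and 2333 RPKM in KO basal and at 20935 and 20975 RPKM in KO suprabasal libraries. Spink5, which encodes the inhibitor LEKTI of skin kallikreins, went from 2.33 and 2.49 to 179 and 189 RPKM, Serpina12, which encodes the serpin vaspin, from 0.478 and 0.48 to 44.0 and 44.1 RPKM, and Sqle, which encodes squalene epoxidase, from 19.7 and 19.97 to 81.2 and 82.0 RPKM. For these genes the 2 libraries of each fraction lay close together and the fractions did not overlap. Both sets of markers were measured in both fractions, so each fraction holds RNA of the other's markers. In bulk libraries, fewer cells of a type and less RNA per cell cannot be told apart.

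**Figure D1:**
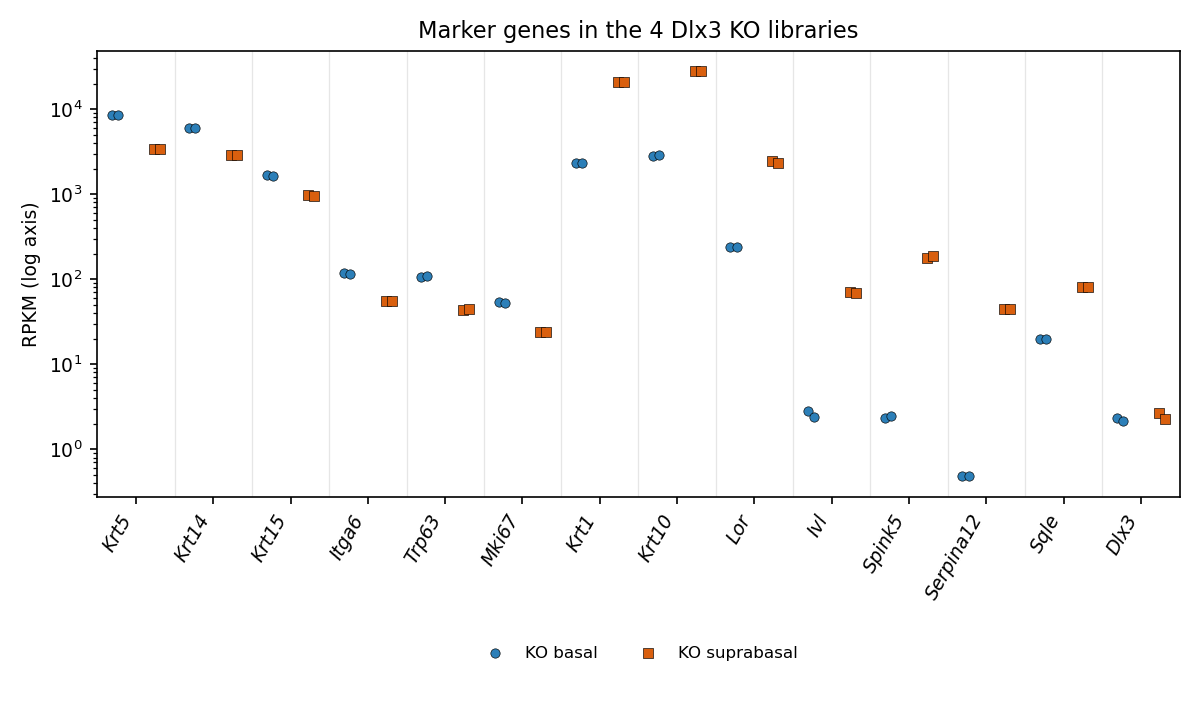
RPKM on a log axis of 14 marker genes in the 2 KO basal (circles) and 2 KO suprabasal (squares) libraries, each point 1 library. Krt5, Krt14, Krt15, Itga6, Trp63 and Mki67 lie lower in the suprabasal libraries, Krt1, Krt10, Lor, Ivl, Spink5, Serpina12 and Sqle lie higher, and the Dlx3 points overlap.

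Of 12146 genes tested, 2416 (19.9%) were higher and 8467 (69.7%) were lower in KO suprabasal than in KO basal cells at an adjusted p under 0.05 in limma, and 10883 (89.6%) were called in all. The rises were larger than the falls: 280 genes rose by a log2 change of 2 or more and 4 fell by as much. The median change of all genes was -0.39 on the log2(RPKM + 1) scale, on which the change of genes with low values is understated. RPKM are relative within a library, and rescaling by the median ratio moved this median to 0 and the calls to 4832 higher (39.8%) and 4700 lower (38.7%). Quantile normalization gave 3566 higher (29.4%) and 6514 lower (53.6%), with a median of -0.16. The share of calls that were higher was 22.2% in the deposited scale, 50.7% after rescaling and 35.4% after quantile normalization. Small falls thus depend on the scale, and list medians are given also relative to the median of all genes. Each list count below is to be read beside the shares of all genes, 19.9% called higher and 69.7% called lower.

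**Figure D2:**
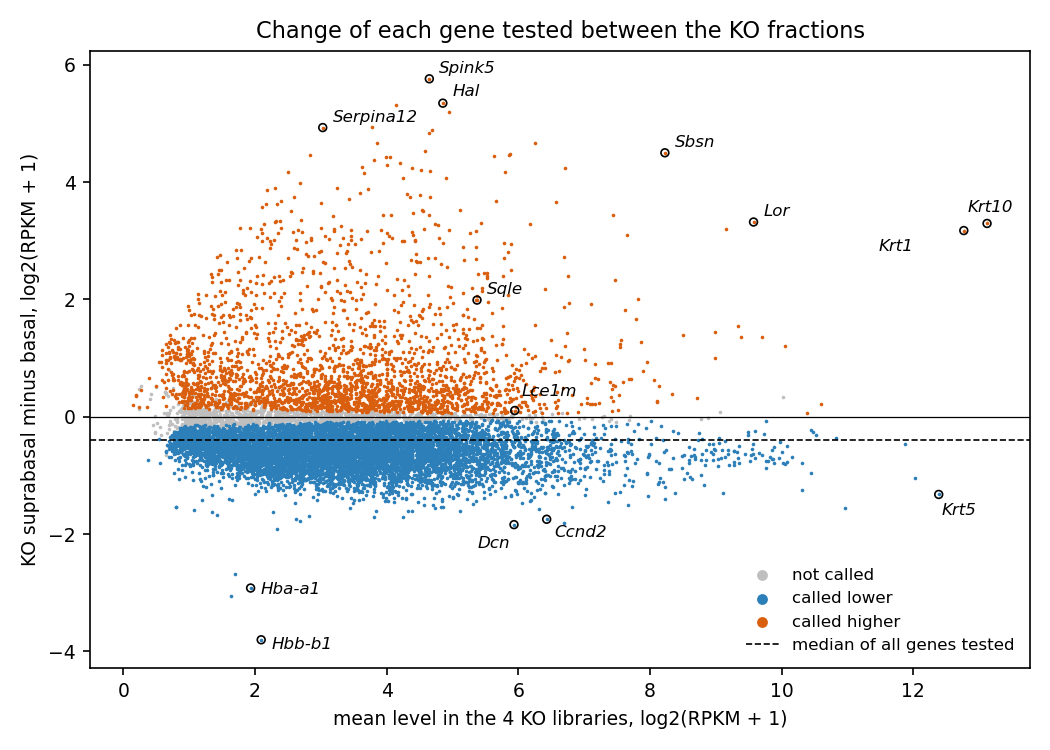
Change between the KO fractions (suprabasal minus basal, log2(RPKM + 1)) against the mean log2(RPKM + 1) level in the 4 KO libraries, for each of the 12146 genes tested, coloured by call, with the median of all genes as a dashed line. The largest rises reach a log2 change of 5.76 (Spink5), and the hemoglobin genes Hbb-b1 and Hba-a1 lie at the lower end.

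Among genes at a mean of 5 RPKM or more in the higher fraction, Spink5 led the rises with a log2 change of 5.76 (SE 0.054, limma, adjusted p = 1.88e-12) on the log2(RPKM + 1) scale. The order of these rises depends on the pseudocount: with 0.1 in place of 1, Serpina12 was at 6.25, Spink5 at 6.20 and Hal at 5.66. Hal, which encodes the enzyme that turns histidine into the ultraviolet absorber urocanate, followed with 3.48 and 3.59 RPKM in basal and 185 and 182 RPKM in suprabasal libraries (log2 change 5.34, SE 0.029, adjusted p = 2.59e-13). The other largest rises were those of Lypd5, a member of the Ly6 family of surface proteins (5.32), Susd2, a membrane protein with a sushi domain (5.20), Serpina12 (4.93), Cyp2b19, an epoxygenase of keratinocytes (4.93), Dkkl1 (4.88), the keratin Krt78 (4.83), the prosaposin-like gene Psapl1 (4.66) and Alox12b, the lipoxygenase of the acylceramide pathway (4.66). In each of these genes both suprabasal libraries lay above both basal libraries, which was a condition for naming them here.

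The largest falls outside the blood genes were smaller. Rragd, a GTPase of amino acid signalling to mTORC1, was at 8.95 and 8.64 RPKM in basal and 1.57 and 1.63 RPKM in suprabasal libraries, a log2 change of -1.91. Dcn, which encodes the matrix proteoglycan decorin, fell by 1.84, Ccer2 by 1.81, Mpped1 by 1.78, Ccnd2 (cyclin D2) by 1.75 and Cygb (cytoglobin) by 1.74 on the log2 scale. Ccer2 was at 194 and 192 RPKM in basal and 54.5 and 54.0 RPKM in suprabasal libraries. In these genes both suprabasal libraries lay below both basal libraries, which was again a condition for naming them.

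Genes of the basal layer fell as a group. Of 28 tested members of the basal keratinocyte list, 24 fell and 0 rose, against 69.7% of all genes called lower, and their median log2 change was -0.99, or -0.60 relative to the median of all genes. The structural keratins fell by 1.32 (Krt5, SE 0.024, limma, adjusted p = 1.09e-10), 1.05 (Krt14) and 0.79 (Krt15) on the log2 scale. Trp63, the transcription factor that maintains the basal state, was at 107 and 108 RPKM in basal and 43.0 and 45.1 RPKM in suprabasal libraries, a log2 change of -1.27. The hemidesmosome genes Itga6 (log2 change -1.07), Itgb4 (-1.02) and Col17a1 (-1.11) fell by nearly the same amount. Ccnd2 went from 161 and 153 to 45.6 and 46.6 RPKM and had the largest fall in this list. The 4 members that were not called were the hemidesmosome linker Plec (log2 change -0.01), the growth factor receptor Egfr (0.08), Igfbp3 (-0.12) and Syt8 (-0.14).

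The basement membrane list gave 20 falls and 2 rises among 24 tested members, against 69.7% and 19.9% of all genes. Their median was -0.80 (-0.40 relative to all genes). Genes for the chains of laminin-332, the anchor of hemidesmosomes, fell by 1.19 (Lama3) and 0.93 (Lamb3) on the log2 scale, and Agrn, a heparan sulfate proteoglycan, was at 194 and 192 RPKM in basal and 95.4 and 93.8 RPKM in suprabasal libraries. The 2 rises were those of Nid1 (nidogen, 2.87 and 2.97 to 7.24 and 7.22 RPKM) and of the muscle and nerve laminin chain Lama2, which was at 0.115 and 0.177 RPKM in basal and 1.20 and 1.28 RPKM in suprabasal libraries.

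The spinous list gave 20 rises and 2 falls among 24 tested members, against 19.9% of all genes called higher, with a median log2 change of 1.96, or 2.35 relative to all genes. Krt10, the type I partner of Krt1, was at 2837 and 2853 RPKM in basal and 28047 and 27790 RPKM in suprabasal libraries, and these 2 keratins rose by 3.29 and 3.17 on the log2 scale. Sbsn (suprabasin) went from 60.9 and 63.1 to 1443 and 1405 RPKM, Dmkn (dermokine) from 185 and 189 to 1735 and 1706 RPKM, and Krt77 from 20.4 and 20.2 to 164 and 162 RPKM. The 2 members called lower, Lgals7 (galectin-7) and the Notch target Hes1, were at a log2 change of -0.36 and -0.34, and both had the opposite sign after rescaling (0.11 and 0.12).

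Nearly all genes of the granular and cornified list rose, with 34 rises and 0 falls among 35 tested members and a median of 2.31, or 2.70 relative to all genes. Lor, which encodes loricrin, the bulk protein of the cornified envelope, was at 241 and 240 RPKM in basal and 2472 and 2344 RPKM in suprabasal libraries, a log2 change of 3.32 (SE 0.042, limma, adjusted p = 1.11e-11). Ivl, which encodes involucrin, an early envelope scaffold, went from 2.81 and 2.43 to 70.3 and 69.6 RPKM (log2 change 4.29). The fused S100 protein gene Hrnr rose by 4.52, the crosslinking enzyme gene Tgm1 by 4.23, the corneodesmosome gene Cdsn by 4.2 and the protease gene Casp14, which acts in cornification, by 2.89 on the log2 scale. Kprp, a keratinocyte proline-rich protein, was the member not called, at 14 and 14.9 RPKM in basal and 12.9 and 14.2 RPKM in suprabasal libraries.

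The genes of the cross-bridging small proline-rich proteins and the late cornified envelope proteins, which sit in the same gene complex as Lor and Ivl, differed. Of 15 listed Sprr genes 8 were tested, and all 8 rose, against 19.9% of all genes. Their median was 1.15 (1.54 relative to all genes). Sprr1b (2.25 and 2.0 to 16.3 and 16.6 RPKM) and Sprr1a (9.15 and 10.5 to 54.4 and 58.5 RPKM) led them. Sprr4 (0.47 and 0.343 to 3.81 and 4.59 RPKM) reached the 1 RPKM needed for a test only in suprabasal libraries. The filter thus favoured a rise for Sprr4. Of 15 tested Lce genes, 0 rose and 10 fell on the deposited scale, where 19.9% of all genes rose and 69.7% fell. Their median was -0.36, or 0.03 relative to all genes. After rescaling 3 rose and 1 fell, and after quantile normalization 2 rose and 5 fell. The direction of the family thus depends on the scale. Lce1m, the most abundant of the tested Lce genes, was at 56.9 and 60.1 RPKM in basal and 64.1 and 61.9 RPKM in suprabasal libraries and was not called (log2 change 0.11, adjusted p = 0.108). Lce1h, at 9.53 and 10.7 in basal and 5.48 and 4.79 RPKM in suprabasal libraries, fell by 0.86 on the log2 scale, and by 0.44 after rescaling. Members of the Lce1 and Sprr families are near-identical and share reads, so single values are uncertain, and Sprr2a1 and Sprr2a2 hold the same values in every library.

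**Figure D3:**
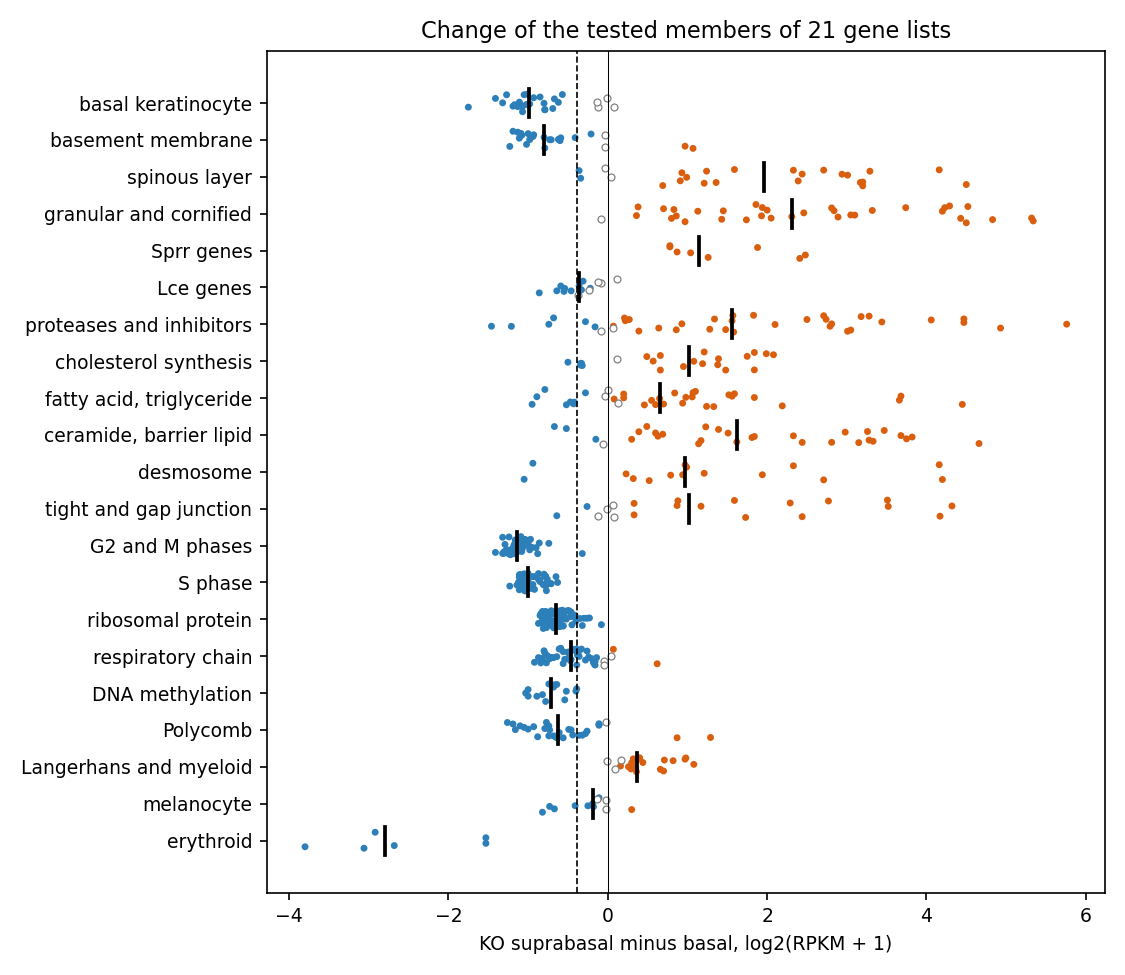
Change between the KO fractions of the tested members of 21 gene lists, each point 1 gene, filled where called (orange higher, blue lower) and open where not, with the list's median as a bar and the median of all genes as a dashed line. The granular and cornified members lie to the right of 0 apart from Kprp, the G2 and M phase members lie to the left, and Hbb-b1 lies furthest to the left.

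The promoters of 4 genes of these groups are shown because they hold the letters TGANTCA, the core of sites for AP-1 (Fos and Jun proteins), which were counted in the promoters of the genes that rose and fell. The sequences are the 250 bases before the RefSeq start of the gene (GRCm38.p6), 5' to 3' on the gene's strand, with the match in capitals.
Hal, chr10:93488518-93488767 (+ strand): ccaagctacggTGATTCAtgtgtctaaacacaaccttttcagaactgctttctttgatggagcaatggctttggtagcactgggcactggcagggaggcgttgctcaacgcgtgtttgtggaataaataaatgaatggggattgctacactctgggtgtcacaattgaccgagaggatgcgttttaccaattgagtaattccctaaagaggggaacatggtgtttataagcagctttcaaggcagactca
Psapl1, chr5:36203771-36204020 (+ strand): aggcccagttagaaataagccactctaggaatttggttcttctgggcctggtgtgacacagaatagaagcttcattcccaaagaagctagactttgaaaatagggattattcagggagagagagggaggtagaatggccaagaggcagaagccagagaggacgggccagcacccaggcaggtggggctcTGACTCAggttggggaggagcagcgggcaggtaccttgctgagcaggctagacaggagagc
Lor, chr3:92083143-92083392 (- strand): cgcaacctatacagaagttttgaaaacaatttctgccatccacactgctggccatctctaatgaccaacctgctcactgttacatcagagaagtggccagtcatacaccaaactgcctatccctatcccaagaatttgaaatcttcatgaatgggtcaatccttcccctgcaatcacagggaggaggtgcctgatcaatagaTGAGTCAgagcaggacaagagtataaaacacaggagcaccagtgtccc
Ivl, chr3:92573736-92573985 (- strand): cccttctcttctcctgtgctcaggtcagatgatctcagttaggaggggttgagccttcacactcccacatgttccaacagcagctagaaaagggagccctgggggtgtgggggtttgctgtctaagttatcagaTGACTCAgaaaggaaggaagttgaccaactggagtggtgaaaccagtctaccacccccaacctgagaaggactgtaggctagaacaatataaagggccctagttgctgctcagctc
The match began at base -239 in Hal, -61 in Psapl1, -48 in Lor and -116 in Ivl, where -1 is the base before the start, and overlapped no other motif searched. The motif was searched on both strands of windows from 250 bases before to 50 bases after the start, of which the RefSeq table holds 32851, and 9467 of the 12146 genes tested were matched by symbol. The letters were in 10 of 33 windows of the granular and cornified genes (30.3%), in 44 of 241 windows of genes that rose by a log2 change of 2 or more (18.3%) and in 29 of 689 windows of genes that fell by 1 or more (4.21%). Among all windows of genes tested the share was 4.99%, and 7.81% of all windows that the table holds had them. The grainyhead letters AACCNGTT were in 3 of the 33 granular and cornified windows (9.09%), against 1.95% of the windows of genes tested and 2.09% of all windows. The homeodomain letters TAATTA were in 2 of the 33 (6.06%), against 2.56% and 5.29%. A match is a run of letters and not a measured site.

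Genes for kallikreins, the proteases that let corneocytes shed, rose, and so did genes for their inhibitors. Of 39 tested proteases and inhibitors, 31 rose and 6 fell, with a median of 1.56 (1.95 relative to all genes). Klk5 was at 10.7 and 12.1 RPKM in basal and 272 and 276 RPKM in suprabasal libraries, and Klk7 at 10.9 and 11.7 and then 271 and 271 RPKM, a log2 change of 4.47 for each. Serpinb12 went from 20.3 and 21 to 151 and 151 RPKM and Serpinb3a from 6.25 and 6.33 to 119 and 122 RPKM, the latter from a family of near-identical genes that share reads. The 6 falls included Serpine2, an inhibitor of thrombin and plasminogen activators (log2 change -1.46), Serpinb6a (-1.21) and Klk10 (-0.74).

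Most cholesterol synthesis genes were higher in the suprabasal cells, apart from several of the early steps. Of 22 tested genes, 16 rose and 5 fell, with a median of 1.02 (1.41 relative to all genes), and after rescaling 21 rose and 1 fell. Msmo1, a methylsterol oxidase, was at 11.3 and 10.8 RPKM in basal and 49.7 and 50.3 RPKM in suprabasal libraries, a log2 change of 2.08, the largest of the list. Sqle rose by 1.99, Mvd by 1.84 and Dhcr7 by 1.75 on the log2 scale. Hmgcs1, a synthase of the early pathway, was at 69.6 and 70.0 RPKM in basal and 54.2 and 55.4 RPKM in suprabasal libraries, a log2 change of -0.34 that was 0.12 after rescaling. The same turn of sign was seen in Acat2 (-0.33, rescaled 0.12), Idi1 (-0.34, rescaled 0.11) and Lbr (-0.32, rescaled 0.13), while Ggps1, a branch enzyme that makes the geranylgeranyl group, was at -0.50 and -0.15. Nsdhl was not called (log2 change 0.11, adjusted p = 0.109).

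**Figure D4:**
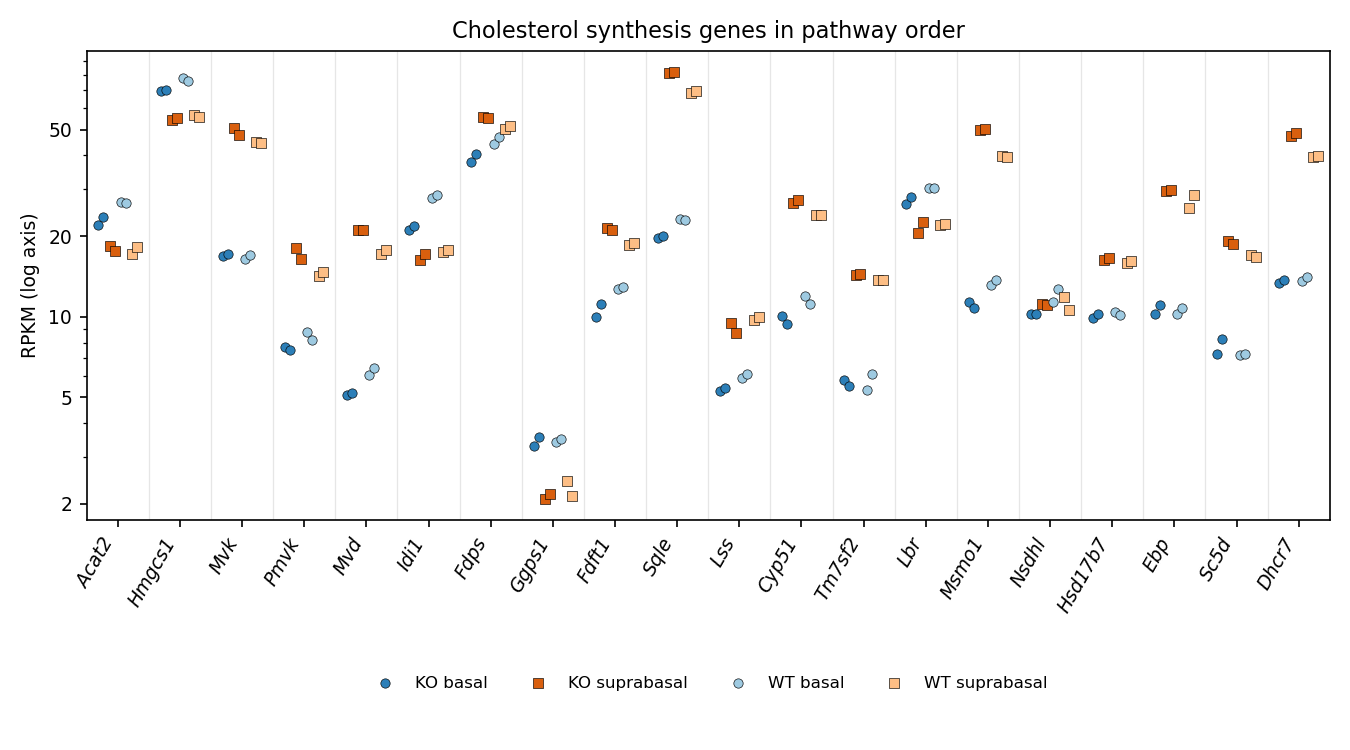
RPKM on a log axis of 20 cholesterol synthesis genes in pathway order in the 2 libraries of each Dlx3 group, each point 1 library. Sqle, Msmo1 and Dhcr7 lie well above their basal levels in the KO suprabasal libraries, while Hmgcs1 lies below.

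The promoters of Msmo1, which rose, and of Hmgcs1, which did not, are shown because both hold the CCAAT box, the letters bound by the factor NF-Y. They are the 250 bases before the RefSeq start, 5' to 3' on the gene's strand, with CCAAT, or ATTGG where it lies on the other strand, in capitals.
Msmo1, chr8:64733579-64733828 (- strand): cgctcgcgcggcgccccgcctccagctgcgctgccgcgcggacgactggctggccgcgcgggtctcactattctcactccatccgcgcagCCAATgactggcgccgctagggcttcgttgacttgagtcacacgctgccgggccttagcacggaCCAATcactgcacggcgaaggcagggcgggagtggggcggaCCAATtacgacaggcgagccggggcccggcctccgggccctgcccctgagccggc
Hmgcs1, chr13:119690101-119690350 (+ strand): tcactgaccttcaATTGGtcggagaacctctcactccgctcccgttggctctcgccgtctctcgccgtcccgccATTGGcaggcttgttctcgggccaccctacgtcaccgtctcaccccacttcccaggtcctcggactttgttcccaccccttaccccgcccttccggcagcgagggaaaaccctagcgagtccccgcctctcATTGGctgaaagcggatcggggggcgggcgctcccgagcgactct
CCAAT began at bases -160, -96 and -55 in Msmo1 and at -237, -176 and -45 in Hmgcs1, and none of them overlapped another motif searched. Hmgcs1 also holds the sterol response letters TCACNCCAC at -137, and Msmo1 holds the AP-1 letters at -127. CCAAT was in 16 of 20 windows of the cholesterol synthesis genes (80.0%), against 37.9% of the windows of genes tested and 37.4% of all windows, and in 34 of 44 windows of the G2 and M phase genes (77.3%), which fell. The sterol response letters were in 1 of the 20 cholesterol windows and in 1.16% of the windows of genes tested.

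Genes that take up, store and sense sterols moved less. Of 20 tested, 13 rose and 5 fell, with a median of 0.30. The largest rise was that of Sult2b1, which makes the cholesterol sulfate of the cornified layer (10.9 and 12.2 to 70.3 and 74.1 RPKM, log2 change 2.55), and Srebf2, the main activator of the pathway, went from 48.1 and 49.4 to 72.1 and 69.9 RPKM (0.53). Mylip, which marks the LDL receptor for degradation, fell by 1.22 on the log2 scale.

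The lipid genes of the barrier rose in most cases. Of 31 tested ceramide and barrier lipid genes, 27 rose and 3 fell, with a median of 1.62 (2.01 relative to all genes). Alox12b was at 2.01 and 1.76 RPKM in basal and 73.9 and 70.1 RPKM in suprabasal libraries. Acer1, an alkaline ceramidase, went from 6.07 and 5.75 to 90.5 and 93.1 RPKM, the secreted phospholipase gene Pla2g2f from 21.8 and 22.5 to 223 and 226 RPKM, and Cyp4f39, which hydroxylates the very long chains, from 5.29 and 5.46 to 70.6 and 68.3 RPKM. The 3 falls were Cers2 (-0.67), Cers5 (-0.52) and Asah1 (-0.15, rescaled 0.30), whereas Cers3, the ceramide synthase of the barrier, rose by 1.39 on the log2 scale.

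Of 35 tested fatty acid and triglyceride genes, 24 rose and 8 fell, with a median of 0.65 (1.05 relative to all genes). Dgat2, the last enzyme of triglyceride synthesis, was at 9.86 and 9.26 RPKM in basal and 229 and 230 RPKM in suprabasal libraries (log2 change 4.45), while Dgat1 was at 10.2 and 10.4 and then 10.6 and 10.1 RPKM and was not called (adjusted p = 0.925). The elongases of very long fatty acids rose by 3.68 (Elovl4) and 3.66 (Elovl1) on the log2 scale, and Acsl1, an acyl-CoA synthetase, by 2.19. Lpin2 and Lpin1, phosphatidate phosphatases, fell by 0.95 and 0.89.

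Most genes of the desmosome, the junction that couples keratin networks of neighbouring cells, were higher in the suprabasal cells. Of 15 tested, 13 rose and 2 fell, against 19.9% and 69.7% of all genes. Their median was 0.97 (1.37 relative to all genes). Dsc1 went from 12.1 and 12.1 to 227 and 241 RPKM and Dsg1a, whose values are uncertain because of near-identical copies, from 78.1 and 77.1 to 388 and 403 RPKM. The 2 cadherins that fell were Dsg2 (27.0 and 26.9 to 12.3 and 12.6 RPKM) and Dsg3 (37.8 and 35 to 17.8 and 19.0 RPKM), which are known from the lower layers. Tight and gap junction genes gave 14 rises and 2 falls among 20 tested, against the same shares of all genes. Their median was 1.02 (1.42 relative to all genes). Among them, the connexin gene Gjb5 went from 3.08 and 3.20 to 82.4 and 81.2 RPKM. The claudin gene Cldn4 went from 9.34 and 9.21 to 119 and 115 RPKM. Cldn23 went from 0.294 and 0.371 to 22.7 and 23.2 RPKM. In these genes the fractions did not overlap. Cldn23 reached the 1 RPKM needed for a test only in suprabasal libraries, so the filter favoured a rise for it.

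Transcription factors of differentiation went in both directions, with a larger share of rises than among all genes. Of 57 tested regulators, 23 rose and 29 fell, against 19.9% and 69.7% of all genes, and their median was 0.30 relative to all genes. After rescaling 32 rose and 24 fell, against 39.8% and 38.7% of all genes. The largest rise was that of Grhl1, a grainyhead factor that regulates desmosomal genes, from 13.6 and 13.8 to 66.0 and 68.0 RPKM (log2 change 2.21), while its relative Grhl2 fell by 0.87. Grhl3, which is needed for barrier formation, rose by 1.62, Ovol1 by 1.55 and Cebpb by 1.85 on the log2 scale. Tfap2b fell by 1.55 (44.5 and 44.3 to 14.5 and 14.5 RPKM), Lef1, the Wnt effector, by 1.71 and Sox6 by 1.41. Dlx5, a relative of Dlx3, was at 0.501 and 0.638 RPKM in basal and 4.52 and 3.97 RPKM in suprabasal libraries.

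Among genes of Notch, Wnt, hedgehog and growth factor signalling, 7 of 40 rose and 29 fell, with 17 and 21 after rescaling, shares near those of all genes (19.9% and 69.7%, and 39.8% and 38.7% after rescaling). Members with large falls were Bmp2 (33.1 and 33.5 to 9.30 and 9.66 RPKM, log2 change -1.71), Shh (-1.45), Wnt10b (-1.39) and Ptch1, the hedgehog receptor and target (-1.16). The Notch receptors differed, as Notch3 rose from 14.3 and 14 to 44.4 and 44.3 RPKM (1.59), Notch2 rose by 1.26 and Notch1 was at -0.55, which was -0.09 after rescaling.

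Genes of cell division were lower in the suprabasal cells. All 50 G2 and M phase genes fell, with a median of -1.14 (-0.74 relative to all genes), and 49 fell after rescaling. All 52 S phase genes fell, with a median of -1.0 (-0.61 relative), and 52 fell after rescaling. Mki67, a marker of cycling cells, was at 53.7 and 52.1 RPKM in basal and 23.8 and 24.2 RPKM in suprabasal libraries (log2 change -1.11), and Pcna, the sliding clamp of replication, at 176 and 180 and then 84.1 and 83.5 RPKM (-1.08). Among 21 tested cell cycle brakes and cyclins, 7 rose and 12 fell after rescaling, against 39.8% and 38.7% of all genes. On the deposited scale 3 rose and 15 fell, near the 19.9% and 69.7% of all genes. The rises were Cdkn1a, which encodes p21 (61.7 and 58.9 to 117 and 112 RPKM), Cdkn2b (2.28 and 2.33 to 8.65 and 8.50 RPKM) and Btg2 (log2 change 0.52).

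Most genes of protein synthesis and energy were lower on the deposited scale, on which 69.7% of all genes fell. All 79 ribosomal protein genes fell, with a median of -0.65, or -0.26 relative to all genes, and after rescaling 62 fell and 7 rose. Of 49 respiratory chain genes 44 fell and 2 rose (18 and 19 after rescaling), of 31 proteasome genes 27 fell and 0 rose (12 and 10), and of 21 glycolysis genes 13 fell and 4 rose (3 and 14). The direction of the respiratory chain, proteasome and glycolysis lists therefore depends on the scale. Hk1, a hexokinase, rose from 10.4 and 11 to 20.3 and 21.2 RPKM, and Cox6a1 from 214 and 215 to 342 and 319 RPKM.

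Most chromatin genes were lower in the suprabasal cells, as were 69.7% of all genes (38.7% after rescaling). All 14 DNA methylation genes tested fell (median -0.71, and 12 fell with 0 rising after rescaling), among them Uhrf1, which recruits the maintenance methyltransferase (51.9 and 52.4 to 26.1 and 24.9 RPKM), and Dnmt3a (22.1 and 21 to 10.2 and 9.87 RPKM). Of 31 Polycomb genes 28 fell and 2 rose (18 and 9 after rescaling). Ezh2, the H3K27 methyltransferase of dividing cells, went from 42.4 and 42.0 to 16.7 and 17.4 RPKM (log2 change -1.26), while its relative Ezh1 was at 7.65 and 7.96 and then 7.85 and 7.51 RPKM and was not called. The rises included the chromodomain gene Cbx7 (2.97 and 3.46 to 9.90 and 8.69 RPKM). Of 33 remodeller genes 31 fell and 1, Chd7, rose (22 and 5 after rescaling), and Chd3 had the largest fall (122 and 119 to 46.4 and 45.5 RPKM). Of 32 histone lysine methylation genes 28 fell and 3 rose, led by the demethylase gene Kdm5b (20.8 and 20.5 to 35.7 and 37.4 RPKM). After rescaling, 14 of these histone methylation genes fell and 11 rose, near the shares of all genes.

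Stress and defence genes included rises of the wound keratins. Of 18 tested, 12 rose and 5 fell, against 19.9% and 69.7% of all genes. Krt16 went from 44.8 and 47.0 to 253 and 242 RPKM, Krt6a from 7.45 and 8.11 to 53.4 and 54.3 RPKM and Krt6b from 6.70 and 6.58 to 81.6 and 81.1 RPKM, the last 2 from near-identical genes. Il1f5, which encodes the interleukin-36 receptor antagonist, rose by 2.04, while Il23a fell by 1.41 and Krt17 by 0.61 on the log2 scale. Antioxidant genes gave 9 rises and 16 falls among 25, against 19.9% and 69.7% of all genes. After rescaling they gave 10 rises and 10 falls, near the 39.8% and 38.7% of all genes. The immediate early and heat shock genes gave 15 rises and 11 falls among 27, from Hspb1, a small heat shock protein (65.9 and 74.9 to 274 and 261 RPKM), to Atf3 (11.8 and 12.5 to 4.68 and 4.86 RPKM).

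Markers of other cell types moved with the fractions, and their part in the changes above was not tested. The summed RPKM of the 13 listed erythroid genes was 44.0 and 44.3 in KO basal and 0.961 and 1.25 in KO suprabasal libraries. All 6 tested members, which are globin genes, were called lower. They reached the level needed for a test only in basal libraries, so the filter favoured a fall. Near-identical globin genes also share reads, and nothing is drawn from the count. Hbb-b1, an adult beta-globin, was at 15.2 and 14.7 RPKM in basal and 0.0523 and 0.243 RPKM in suprabasal libraries, and Hba-a1 at 9.83 and 9.19 and then 0.346 and 0.433 RPKM. Hbb-bh1, Hbb-y and Hba-x, the embryonic globins, are listed at 0, Alas2 and Slc4a1 did not reach the level needed for a test, and Hbb-b2 and Hbb-bt hold the same values in every library. The 20 tested Langerhans and myeloid genes gave 17 rises and 0 falls, against 19.9% and 69.7% of all genes. The summed RPKM of the 21 listed genes was 305 and 310 in basal and 408 and 405 in suprabasal libraries. Cd207, the defining marker of Langerhans cells, was at 1.47 and 1.78 and then 1.84 and 2.04 RPKM and was not called.

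Of 14 fibroblast genes tested, 6 rose and 8 fell (9 and 5 after rescaling), and their sum was 490 and 505 RPKM in basal and 294 and 298 RPKM in suprabasal libraries. Col3a1 went from 0.674 and 0.784 to 14.1 and 14.1 RPKM and Col1a1 from 0.344 and 0.303 to 4.81 and 4.87 RPKM. Both reached the level needed for a test only in suprabasal libraries, so the filter favoured a rise for them. Dcn, at 112 and 118 and then 30.7 and 32.0 RPKM, fell. The melanocyte sum was 132 and 135 RPKM in basal and 112 and 113 RPKM in suprabasal libraries, with 1 rise and 8 falls among 12 tested (6 and 3 after rescaling), and 69.7% of all genes fell (38.7% after rescaling). Schwann cell genes gave 0 rises and 5 falls among 6. The defining fibroblast markers Pdgfra and Lum did not reach the level needed for a test. Few genes of T cells (4 of 16), endothelium (2 of 15), muscle (3 of 15) and mast cells or neutrophils (3 of 19) reached the level needed for a test.

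The change between the fractions was compared with that in WT libraries, with the difference itself tested. In WT, 2336 genes (19.2%) rose and 8545 (70.4%) fell between the fractions. Of the genes tested, 8039 fell and 2058 rose in both genotypes, 50 fell in KO and rose in WT, and 76 rose in KO and fell in WT. The fraction change was more positive in KO for 1755 genes (14.4%) and more negative for 982 (8.08%) in limma, and among these calls 19 and 11 differed by a log2 value of 1 or more. Without WT basal replicate 2 the counts were 1043 and 548, without KO basal replicate 1 they were 1109 and 564, and the negative ones numbered 611 without WT suprabasal replicate 1 and 588 without WT suprabasal replicate 2. After rescaling the counts were 1644 (13.5%) and 1124 (9.25%), and after quantile normalization 1059 (8.72%) and 1362 (11.2%).

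Among the negative differences were those of inner root sheath genes of the hair follicle. Krt71, an inner root sheath keratin, was at 0.137 and 0.0981 RPKM in KO basal and 0.238 and 0.259 RPKM in KO suprabasal libraries, against 0.0874 and 0.0767 RPKM in WT basal and 7.80 and 6.96 RPKM in WT suprabasal libraries. The difference between the fraction changes was -2.79 on the log2 scale (SE 0.096, limma, adjusted p = 5.6e-06). Krt25 (-1.72, adjusted p = 2.86e-05), Krt27 (-1.21), Krt28 (-0.81) and Tchh, which encodes trichohyalin (-0.87), had the same sign. In all 5 genes the KO suprabasal libraries lay below the WT suprabasal libraries. Of 11 tested inner root sheath genes 7 had a more negative and 1 a more positive change in KO, against 8.08% and 14.4% of all genes. Krt71 and Krt25 reached the level needed for a test only in WT suprabasal libraries, and Krt27 only in WT libraries. The filter thus favoured a negative sign for them, and nothing is drawn from the count. The summed RPKM of the 19 listed genes was 63.8 and 64.2 in KO suprabasal and 92.9 and 94.2 in WT suprabasal libraries.

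Cornified genes such as Lor and Hrnr rose by a smaller fold in KO than in WT and had a higher level in KO basal than in WT basal cells. Lor was at 58.5 and 64.5 RPKM in WT basal and 1320 and 1341 RPKM in WT suprabasal libraries, so both KO fractions lay above their WT counterparts while the log2 change between fractions differed by -1.10 (SE 0.060, limma, adjusted p = 3.37e-05). Hrnr (difference -0.68) was at 4.04 and 3.95 RPKM in KO basal against 0.928 and 1.03 RPKM in WT basal libraries, and at 113 and 115 against 71.8 and 71.6 RPKM in the suprabasal libraries. Of 35 granular and cornified genes, 16 had a more negative and 5 a more positive fraction change in KO, against 8.08% and 14.4% of all genes. Of the 5, Blmh, a cysteine protease of cornifying cells, differed by 0.59. For the Lce genes 9 of 15 had a more negative change, and their summed RPKM was 265 and 271 in KO basal and 227 and 225 in KO suprabasal against 64.3 and 69.5 in WT basal and 77.5 and 85.5 in WT suprabasal libraries. The KO libraries lay above the WT libraries in both fractions, and in WT 6 Lce genes rose and 0 fell.

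The cholesterol synthesis genes differed the other way, with 12 of 22 more positive in KO and 0 more negative, against 14.4% and 8.08% of all genes. After quantile normalization 11 were more positive and 0 more negative, against 8.72% and 11.2% of all genes. Sqle was at 23.2 and 23.0 RPKM in WT basal and 68.3 and 69.8 RPKM in WT suprabasal libraries, so that KO was lower in basal and higher in suprabasal cells, with a difference of 0.45 (SE 0.034, limma, adjusted p = 0.000132). Msmo1 differed by 0.59. Ribosomal protein genes had 71 of 79 more positive changes in KO on the deposited scale and 5 more positive with 5 more negative after quantile normalization, so that list depends on the scale.

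The change in markers of other cell types also differed between the genotypes. Of 20 Langerhans and myeloid genes, 15 had a more positive fraction change in KO and 0 a more negative one, against 14.4% and 8.08% of all genes. In WT 1 rose and 10 fell, where 19.2% of all genes rose and 70.4% fell. The median WT change was -0.12 for the list and -0.40 for all genes. C1qb, a complement subunit of macrophages, was at 5.41 and 6.18 RPKM in KO basal and 13.6 and 13.1 RPKM in KO suprabasal libraries, against 5.98 and 6.07 RPKM in WT basal and 6.35 and 6.25 RPKM in WT suprabasal libraries, a difference of 1.03. The fibroblast genes had 12 of 14 more positive, with Col3a1 at 5.95 and 5.77 RPKM in WT suprabasal libraries (difference 1.01). Col3a1, Col6a3 and Col1a1 reached the level needed for a test only in suprabasal libraries, and nothing is drawn from the count. Chil1 (1.19) and Sox18, a factor of endothelium and dermal papilla (1.17), were also more positive. For hemoglobin the WT basal libraries were higher, with Hbb-b1 at 28.7 and 32.8 RPKM, and the log2 change between the fractions was -4.88 in WT and -3.80 in KO, a difference of 1.08 (1.42 and adjusted p = 0.052 in limma with a pseudocount of 0.1). Their part in the other differences was not tested.

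**Figure D5:**
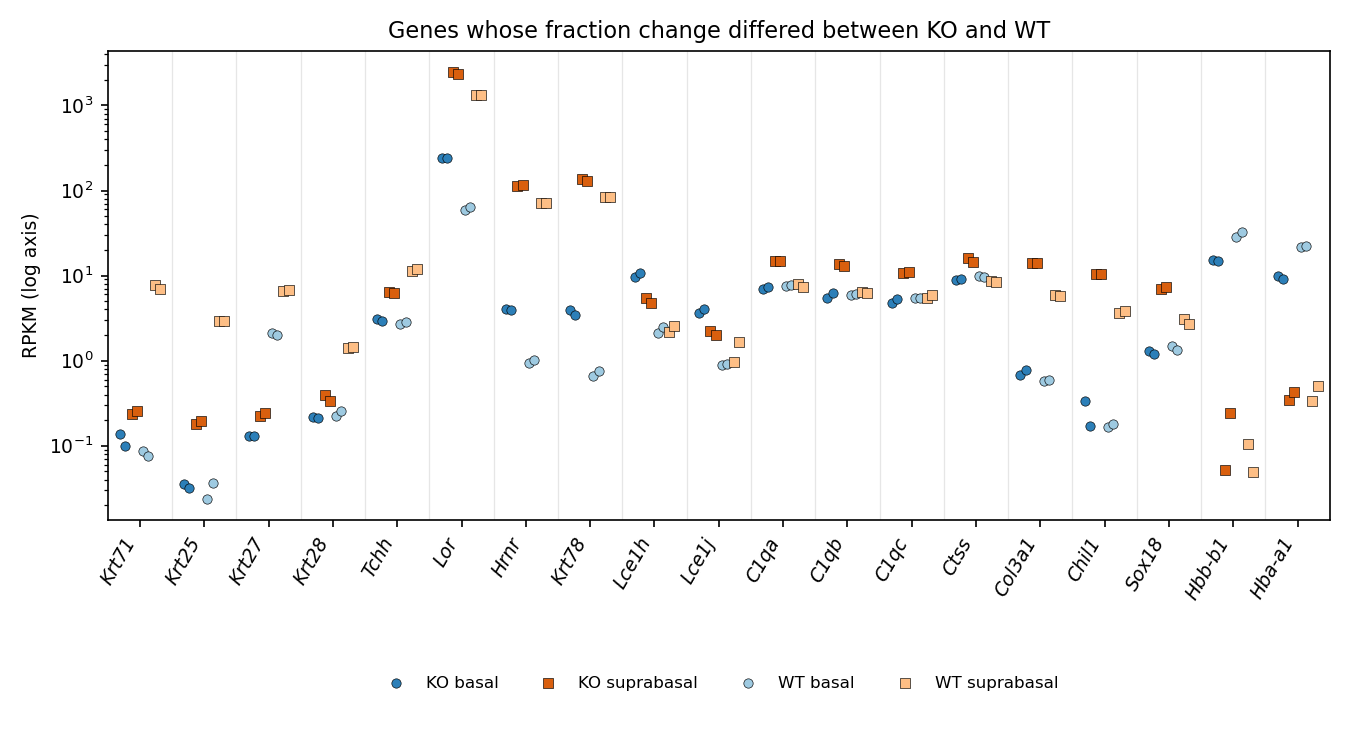
RPKM on a log axis of 19 genes whose change between the fractions differed between KO and WT, in the 2 libraries of each Dlx3 group, each point 1 library. Krt71 and Krt25 stay low in the KO suprabasal libraries, Lor and Hrnr lie above their WT levels in each KO fraction, and C1qb and Col3a1 are higher in the KO suprabasal libraries than in the other groups.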

How the data were processed

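The authors deposited a table of RPKM per gene and library. Per the file headers, reads were mapped to mm10 with TopHat and RPKM were calculated in Partek. The submitters' processing notes name bcl2fastq 2.20.0.422, TopHat2 2.1.1 and Partek. Libraries were made with the NEBNext Ultra II RNA kit, per the labels' protocols. The gene annotation, the strand setting and the handling of multi-mapped reads are not given in the sources used here, so near-identical genes (Lce1, Sprr, Krt6, Serpinb3, Dsg1, globin families) are uncertain. The authors' own analysis of variance columns were not used.

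The table lists 24981 genes, of which 19951 were above 0 in a KO library. A gene was tested where it reached 1 RPKM in at least 2 of the 8 Dlx3 libraries, which gave 12146 genes and left out 12835. RPKM plus a pseudocount of 1 was taken to log2, and the 4 group means were fitted in limma 3.58.1, run in R 4.3.3, with its trend option, 4 residual and 4.8 prior degrees of freedom. P-values were adjusted by the Benjamini-Hochberg method across the 12146 genes. Genes under an adjusted p of 0.05 are called, and the text says of these alone that they rose or fell. The difference between the genotypes is the interaction term of the same fit. The script was tested on simulated data. Alternatives were pseudocounts of 0.1 and 0.25, no filter, a filter at 5 RPKM, rescaling by the median ratio, quantile normalization, KO libraries alone, no trend, a robust prior, a replicate block, and leaving out each library. Depth was estimated from the steps between RPKM of genes with a single transcript in the GENCODE annotation of mm10, since the gene lengths of the authors are not in the table, and precision is given by the SE of limma. Python 3.11.15, pandas 2.3.3, numpy 2.4.6 and matplotlib 3.10.9 made the tables and figures.

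The libraries, the gene lists and the naming rule were chosen with earlier results of these data known. The rule took Dlx3, Krt5, Spink5, Serpina12, Sqle, Krt14, Krt15, Itga6, Trp63, Krt1, Krt10, Lor, Ivl and Mki67. It also took the largest rises, falls and differences among called genes, at most 10 each, at a mean of 5 RPKM or more and without overlap, and up to 5 members of each list with the smallest p, plus members that differed between the genotypes by a log2 value of 1 or more. Olfactory receptors and predicted genes were skipped. Exceptions within a list, single steps of a pathway and the other genes named were chosen after their values were seen. The 43 lists hold 1167 genes, of which 1148 are in the table. A list of transcripts encoded in mitochondria had 0 members in the table. A few genes picked by this rule were left out of the text.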

Additional observations from a re-analysis of the deposited data

Results flagged for a closer look

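Each value here is the KO change between the fractions (suprabasal minus basal) minus the WT change, on the log2(RPKM + 1) scale. Each was picked out because the interaction term of the limma fit passed an adjusted p of 0.05. The difference was positive for 1755 genes and negative for 982, and without WT basal replicate 2 these counts were 1043 and 548.

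Dlx3 itself was at 0.60, with a fall between the WT fractions and no call between the KO fractions on the deposited scale. Serpina12 was at 0.27, but at -0.29 with a pseudocount of 0.25 and at -0.70 with 0.1. Its WT libraries were at 0.135 and 0.109 RPKM in basal and 27.1 and 27.4 RPKM in suprabasal cells, so no direction is drawn. Sqle was at 0.45, whereas Spink5 was at -0.37, Krt1 at -0.40, Krt10 at -0.36 and Lor at -1.10. The basal genes Krt5 (-0.20), Krt15 (-0.22), Itga6 (-0.11) and Trp63 (-0.20) fell by slightly more in KO than in WT, and Krt5 was at 0.00 after quantile normalization. Inner root sheath genes were at -2.79 (Krt71), -1.21 (Krt27) and -0.87 (Tchh).

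Other negative differences were those of Serpinb3a (-0.98) and Serpinb3b (-0.86), near-identical serpin genes, Pla2g4f, a cytosolic phospholipase (-0.91), Lce1h (-0.89), and the small nucleolar RNA genes Snord100 (-0.98) and Snora16a (-0.97). Positive differences were those of Chil1 (1.19), Sox18 (1.17), C1qb (1.03) and the globin genes Hbb-b1 (1.08), Hbb-bs (1.18), Hba-a1 (1.11), Hba-a2 (1.22), Hbb-b2 (1.25) and Hbb-bt (1.25). The histone gene Hist1h2af was at 2.1, with KO basal libraries at 6.57 and 1.51 RPKM, so its value rests on libraries that are far apart.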

How the results depend on the processing

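Of the settings that use all libraries, the counts changed by more than 1.5 times only for rescaling by the median ratio (4832 higher and 4700 lower between the KO fractions) and quantile normalization (1059 more positive differences between the genotypes). Of the 8515 genes called both on the deposited scale and after rescaling, 1399 had the opposite sign. Rescaling divides each library by a single factor and moved the median change of all genes from -0.39 to 0, so small falls can turn into rises. Of the 9270 genes called both on the deposited scale and after quantile normalization, 352 had the opposite sign, and the cause of these was not tested. The share of higher calls in the difference was 64.1%, 59.4% after rescaling and 43.7% after quantile normalization. Leaving out each library gave 2269 to 2406 higher and 8244 to 8459 lower between the KO fractions, and 1043 to 1514 more positive and 548 to 792 more negative differences, with fewer samples in the fit. The negative differences numbered 564 without KO basal replicate 1, 548 without WT basal replicate 2, 611 without WT suprabasal replicate 1 and 588 without WT suprabasal replicate 2. The positive ones numbered 1109 without KO basal replicate 1 and 1043 without WT basal replicate 2. A group left with 1 library is assumed to vary like the others.

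The replicate numbers are only shared: libraries of the same number in KO basal and KO suprabasal deviated with a correlation of 0.017. With the replicate block, 2398 genes were higher and 8464 lower between the KO fractions, and 1583 differences were positive and 784 negative.

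Among the named genes, 30 values had the opposite sign. After rescaling these were Acat2 (0.12), Asah1 (0.30), Ezh1 (0.40), Hes1 (0.12), Hmgcs1 (0.12), Idi1 (0.11), Igfbp3 (0.32), Kprp (0.35), Lbr (0.13), Lgals7 (0.11), Plec (0.45) and Syt8 (0.13). After quantile normalization they were Asah1 (0.10), Ezh1 (0.25), Igfbp3 (0.16), Kprp (0.19), Plec (0.20), Krt25 (-0.06), Krt27 (-0.13), Krt28 (-0.07) and Krt71 (-0.09). Leaving out 1 library gave values of both signs for Dlx3 (-0.01 to 0.16), Dgat1 (-0.03 to 0.04), Ezh1 (-0.05 to 0.01), Plec (-0.03 to 0.02), Hist1h2af (-0.33 to 1.26) and Snora16a (-0.19 to 0.27). Of the other values of named genes, 28 newly passed the threshold and 25 no longer did. Low RPKM limit the precision of genes near 1 RPKM.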

Other observations

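Most genes of retinoid handling and calcium were higher in the KO suprabasal cells. There were 18 rises and 2 falls among 22 tested, against 19.9% and 69.7% of all genes. The median log2 change was 0.59 (0.98 relative to all genes). Rdh12, a retinal reductase, was at 5.16 and 5.12 RPKM in basal and 83.9 and 83.1 RPKM in suprabasal libraries. Rbp2, a retinol binding protein, went from 2.43 and 2.83 to 33.6 and 30.6 RPKM and Crabp2, the retinoic acid binding protein, from 2.69 and 3.09 to 30.0 and 30.3 RPKM. Calm4, a calmodulin-like protein of the epidermis, went from 299 and 316 to 827 and 854 RPKM. In these genes the fractions did not overlap. The retinoic acid receptor gene Rara fell by 0.81 on the log2 scale, from 21.6 and 22.3 to 11.8 and 12.4 RPKM.

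Of 11 tested genes of the sebaceous list, 10 rose and 1 fell, against 19.9% and 69.7% of all genes. Their median was 1.07 (1.46 relative to all genes). The rises included Krt79 (218 and 227 to 587 and 590 RPKM) and Acsbg1, an acyl-CoA synthetase (17.0 and 17.3 to 97.3 and 95.9 RPKM). The outer root sheath and progenitor list gave 5 rises and 12 falls among 18 tested (7 and 11 after rescaling), where 69.7% of all genes fell (38.7% after rescaling). Lgr5, a stem cell marker of the hair follicle, rose from 1.16 and 1.27 to 5.02 and 4.99 RPKM, and Edar, the ectodysplasin receptor, fell from 29.7 and 29.1 to 10.6 and 10.6 RPKM.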
